A study of Homo sapiens with 45 samples.

Results

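The comparison set 7 fixed against 11 live single cells, both opened by Triton X-100 lysis without the FRISCR procedure, among 45 cells in the series. All came from H1, a long-established line of human embryonic stem cells, at passage 40, grown in mTESR1 medium on Matrigel and dissociated with Accutase. They were chosen by the lysis and state given in their labels. Fixed cells carry the phenotype DAPI+ and live cells DAPI-, where DAPI is a dye that intact living cells keep out. The fixative used on these cells is not given in the sources used here, since the protocol text attached to them is about cortical tissue. A code in the sample titles splits the cells into 2 library sets, with 4 and 3 fixed cells and 5 and 6 live cells. The 12 fixed and 15 live cells prepared by FRISCR, the study's method of freeing RNA from a fixed cell before reverse transcription, are given beside them. The series design presents these H1 cells as a test of principle for both lysis methods.

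Fixatives tie proteins to each other and to RNA, and detergent opens membranes without undoing such ties. Smart-seq2, the method used here, copies polyadenylated RNA from an oligo(dT) primer and extends the copy toward the 5′ end, so a transcript is counted only where that copy is made and amplified. A cell sequenced in this way reports a share of the copied molecules and not an absolute amount. Less RNA copied per cell and less RNA present per cell therefore cannot be told apart.

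Total counts per cell ranged from 3388417 to 4763278 in fixed cells and from 4310709 to 6594043 in live cells. Separate cultures are not named for any group. Each group is therefore 1 sample without a test, and a group's level is given as CPM, its summed counts of a gene per 1000000 of its total. Intervals are exact 95% binomial intervals on the summed counts and cover counting error only. The 10 pluripotency markers summed to between 4222 and 6248 CPM in live cells and to between 1062 and 2598 CPM in fixed cells. All 10 reached 10 CPM in live cells, and 9 did so in fixed cells. Markers of definitive endoderm (5) and mesoderm (4) summed to at most 0.858 CPM in any cell. The 7 neural progenitor markers summed to 49.3 to 276 CPM in fixed and 244 to 638 CPM in live cells, most of it PTPRZ1 (124 against 380 CPM over the groups), and SOX1 and HES5 were at 0. The 7 fibroblast markers summed to 0 to 102 and 31.7 to 259 CPM, from COL1A1 and COL1A2. PDGFRB had 0.0519 CPM in the live group, and COL3A1, DCN, LUM and POSTN were at 0. The 4 blood markers summed to 0 to 562 CPM in fixed and 1.00 to 164 CPM in live cells. This was mostly CD74, at 119 against 56.2 CPM over the groups, with 562 and 276 CPM in fixed cells 5 and 2 and 13.9 CPM in cell 3. The part of these markers in the results was not tested.

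At equal total counts every fixed cell yielded fewer genes than any live cell. After thinning each cell to 1000000 counts, fixed cells had 4139, 4718, 6632, 5546, 5104, 5303 and 4739 genes with a count (cells 1 to 7). Live cells had between 8829 and 10248 genes, with a median of 9625, so the groups did not overlap. The difference of medians was -4521 genes, against an SD over fixed cells of 791. The row TVAS5 took 16.2 to 33.0% of a fixed cell's counts and 2.76 to 13.0% of a live cell's, and rows named for ribosomal RNA took 6.09 to 11.4% and 0.565 to 1.90%, so the depth left for other genes was not equal. With these rows left out before thinning, an alternative chosen after seeing the data, fixed cells had 4474 to 7071 and live cells 8830 to 10283 genes, a difference of medians of -4318. The cell with most genes, fixed cell 3, also had the fewest total counts.

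Of 7256 genes that reached 20 CPM in 1 of the groups, 3394 (46.8%) were more than 2-fold lower in fixed cells in both library sets. Only 588 (8.1%) lay within 2-fold in both sets, and 309 (4.26%) were more than 2-fold higher in both. The other 2965 genes did not share a class in both sets, and 706 of them differed by more than 2-fold in opposite directions in the 2 sets. The same rule applied to FRISCR cells placed 3.23% of 7518 genes lower, 66.6% within 2-fold and 1.16% higher. Genes lower in Triton cells had a median log2 fold (fixed over live) of -3.92, and in FRISCR cells the median of the same genes was -0.14. With factors of TMM, a scaling that discounts extreme genes, 2734 genes were lower and 615 higher, which takes the lower share of the called genes from 91.7% to 81.6%.

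In a single fixed cell the commonest state of a transcript was missing or nearly so, and the rest spread broadly around their live level. The plot of single-cell levels rests on 3495 genes with at least 50 CPM in summed live cells and a count in all 11 live cells. In a fixed cell, 54.3% of these genes were missing or at most 10% of the live level, 16.2% lay above that and under the 2-fold limit, and 19.9% lay within 2-fold of it. A further 9.43% were between 2 and 10 times the live level. In live cells 1.96% were at most 10% of the group's level and 83.0% lay within 2-fold, although the choice of genes fixes that none is missing there. In fixed FRISCR cells, with 3176 genes chosen by the same rule in live FRISCR cells, 5.96% were missing or at most 10% and 73.5% lay within 2-fold.

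**Figure D1:**
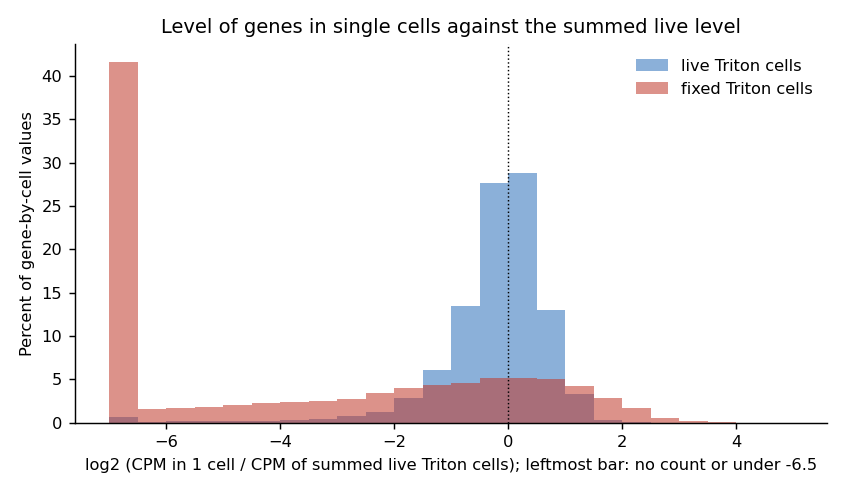
Histogram of the log2 ratio of a gene's CPM in 1 cell to its CPM in summed live Triton cells, for 3495 genes in each of 7 fixed (red) and 11 live (blue) cells, in percent of gene-by-cell values. The leftmost bar holds values without a count or under the axis range; fixed cells have a large bar there and a broad spread around 0, while live cells have 1 peak around 0.

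Each fixed cell showed this, with the missing or nearly missing share between 37.0% in cell 3 and 67.8% in cell 1, and no live cell exceeded 3.55%. Where a gene stood above 10% of the live level in a fixed cell, its median log2 ratio to that level was -0.30. The group's level of a gene therefore often rested on 1 cell. Within set 1 the highest of 4 fixed cells carried a median of 82.5% of a gene's summed CPM, and the highest of 5 live cells 36.6%. Within set 2 it was 88.7% for 3 fixed cells and 29.7% for 6 live cells. A single cell held more than 90% of the CPM for 42.9% and 49.0% of genes in the fixed sets and for 2.37% and 1.01% in the live sets.

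The number of fixed cells with a count was higher at higher live levels from 50 CPM on. Among 4185 genes with at least 20 CPM and a count in all 11 live cells after thinning, 1087 had a count in all 7 fixed cells and 158 in none. The share found in all 7 was 27.2% at 20 to 50 CPM, 13.9% at 50 to 100 CPM, 21.0% at 100 to 200 CPM, 37.5% at 200 to 500 CPM and 73.9% at 500 CPM or more. None of these genes at 200 CPM or more was missing from all 7 cells. Under 20 CPM, 329 further genes had a count in all 11 live cells, and 63.5% of them were found in all 7 fixed cells. A count in all 11 live cells is a stricter demand at low levels, so the bins are not chosen on equal terms. TFRC, described with the lost genes, is not among the 4185, and 1 live cell had only 0.349 CPM of it.

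**Figure D2:**
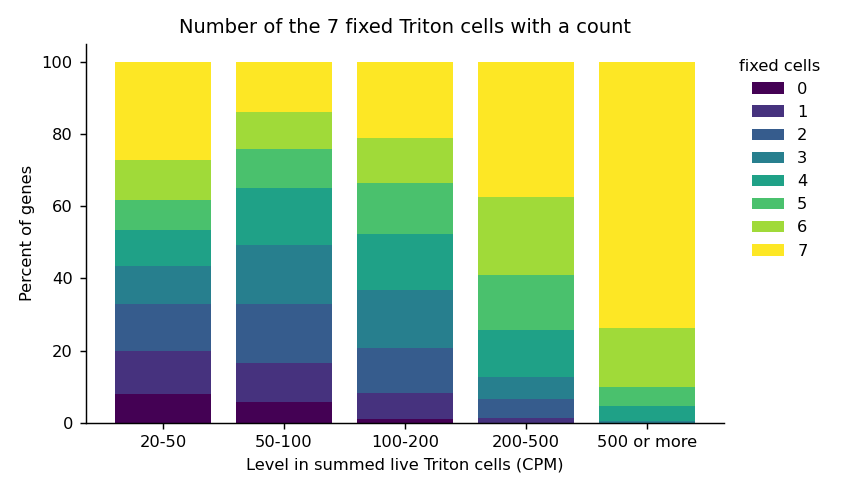
Stacked bars give the percent of genes with a count in 0 to 7 of the fixed Triton cells (colour), by CPM in summed live Triton cells, after thinning to 1000000 counts. Of the levels shown, the share in all 7 cells is lowest at 50 to 100 CPM (13.9%) and highest at 500 CPM or more (73.9%). Genes under 20 CPM are not shown.

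Short transcripts were kept or higher in fixed cells and longer ones were lower, with the step lying below 2000 nt. The median log2 fold was 1.79 for 29 genes with transcripts up to 500 nt, 1.14 for 147 genes of 500 to 750 nt and 0.61 for 244 genes of 750 to 1000 nt. It was -0.47 for 610 genes of 1000 to 1500 nt and -1.62 for 817 genes of 1500 to 2000 nt. Beyond that it changed little, at -1.96, -2.07 and -1.59 for transcripts of 2000 to 3000, 3000 to 5000 and over 5000 nt. Both sets showed the slope, from 1.45 to -2.66 in set 1 and from 1.79 to -3.30 in set 2 between the shortest transcripts and those of 3000 to 5000 nt. In FRISCR cells the same bins ran from 0.35 to -0.16. A gene low in live Triton cells enters the Triton bins only where the fixed group is high, so the Triton medians lean upward. Among genes with at least 20 CPM in live Triton cells they were 1.49 (20 genes), 1.07 (121) and 0.38 (206) for the bins up to 1000 nt. At 3000 to 5000 nt the median was then -2.33. Live levels also differed between the bins, with medians of 116 CPM in the shortest and 47.0 CPM in the longest, and their part in the slope was not tested.

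**Figure D3:**
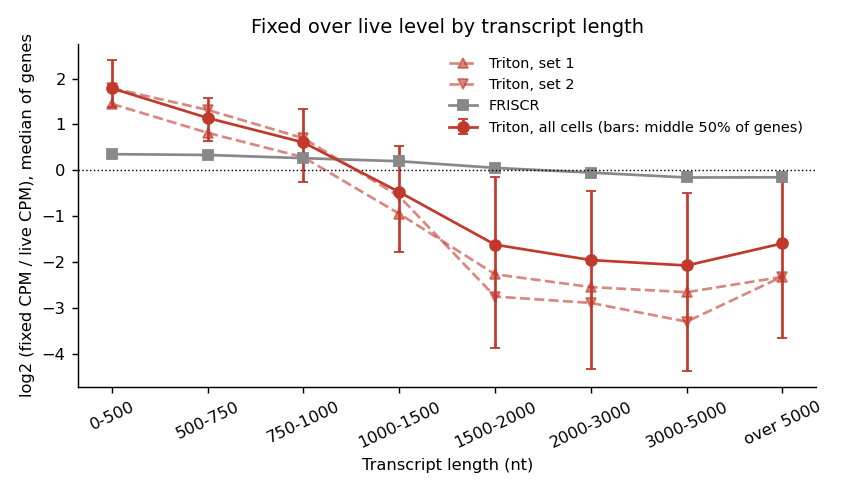
Median log2 ratio of fixed to live CPM over those of the 7256 genes that have a length, by transcript length in nt; red circles are Triton cells with bars for the middle 50% of genes, triangles are each library set, and grey squares are FRISCR cells over their own tested genes. Triton medians drop from 1.79 to -1.62 between the shortest bin and 1500 to 2000 nt and stay low, whereas FRISCR medians stay between 0.35 and -0.16.

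Between transcripts up to 1000 nt and those over 2000 nt the medians differed by 2.76 on the log2 scale, and by 2.69 without the ribosomal protein genes. The difference was 2.85 among genes with at least 20 CPM in live cells. Detection was highest for short transcripts and lowest at 2000 to 3000 nt, not at the longest. Genes of up to 500 nt had a count in a mean of 97.0% of fixed cells, those of 750 to 1000 nt in 79.6%, those of 1000 to 1500 nt in 62.8%, those of 2000 to 3000 nt in 56.7% and those over 5000 nt in 65.4%. Genes higher in both sets had a median transcript of 1462 nt, those within 2-fold 2258 nt and those lower 3377 nt. Transcripts up to 1000 nt made up 37.3% of the higher genes and 0.593% of the lower ones. Of the genes tested, 98.3% had a length, taken by symbol from GENCODE release 29. The median GC content was 53.2% for higher and 46.1% for lower genes.

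Single cells showed the same difference between short and long transcripts. Of 255 genes with transcripts up to 1000 nt, 16.2% of values in fixed cells were missing or at most 10% of the live level, and 37.4% stood at 2 to 10 times that level. Of 2399 genes over 2000 nt, these shares were 60.2% and 5.31%. The long transcripts that stood above 10% had a median log2 ratio of -0.78, and the short ones of 0.87.

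No count at all in any fixed cell was found for 100 of 4786 genes (2.09%; 183 genes without fixed cell 4) that had at least 20 CPM and a count in every live cell. Among 3944 genes chosen alike in FRISCR cells the number was 0 (0.0%). There a gene had to be absent from 12 fixed cells in place of 7, which is harder to meet, so the numbers are not on equal terms. The live levels of the 100 genes ran from 20.0 to 214 CPM with a median of 44.9. In FRISCR cells they had medians of 37.5 CPM in the fixed and 37.6 CPM in the live group, with 88 of them within 2-fold, and each was found in 3 to 12 of the 12 fixed cells. Among the 10 highest in live cells were TFRC, the transferrin receptor, PMPCA, a subunit of the mitochondrial processing peptidase, LASS5, a ceramide synthase, VPS72, a chromatin remodelling subunit, TM9SF1, a membrane protein, HPRT1, the purine salvage enzyme, MUL1, a mitochondrial ubiquitin ligase, CDK7, the kinase of general transcription factor TFIIH, and FTSJ1, an RNA methyltransferase.

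HPRT1 had 0 counts in each of the 7 fixed cells and 37.8 CPM in the lowest, 76.9 in the median and 193 in the highest live cell. With a floor of 3 counts in place of 0 over the fixed group it was 798-fold lower, with an interval from 649. In FRISCR cells it had 116 CPM in the fixed and 65.5 CPM in the live group. CDK7 had 33.4, 71.3 and 123 CPM in the lowest, median and highest live cell and was 723-fold lower at the floor (interval from 588). The rule for lost genes requires a count in every live cell and none in any fixed cell, so that pattern follows from the choice. TFRC was 2076-fold lower at the floor (interval from 1688), with live cells from 0.349 to 483 CPM. VPS72, at least 989-fold lower, has a transcript of 689 nt, the only one of the 10 under 1000 nt.

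Among genes with some count left, at least 50 CPM in both live sets and a count in every live cell, 10 were taken by the set with the smaller difference, so that both sets had to be low. They held 1 to 6 counts over all 7 fixed cells. AATF, an apoptosis antagonist and ribosome assembly factor, had 0.250 CPM in fixed cell 4, 0.218 CPM in fixed cell 6 and 0 in the others. Its live cells ran from 95.8 to 274 CPM, and 2 counts stood against 7471 (ratio 1883-fold lower, interval 521 to 15551). SDCBP, the adaptor syntenin, had 1.00 CPM in fixed cell 4, 0.228 in fixed cell 7 and 0 elsewhere, against 171 to 351 CPM in live cells. It was 1288-fold lower (interval 552 to 3969), and 5559-fold lower on the 1 count left without fixed cell 4. Others of the 10 were PDCD6IP, which acts in membrane scission, TOR1A, an ATPase of the endoplasmic reticulum, PSMC6, a proteasome ATPase, TRIM37, a ubiquitin ligase, SERPINE2, a protease inhibitor, VAT1L and ATP5SL. For these 10 the ratios lay between 1043 and 3634, with intervals from 288 to 143570 at the extremes. Except for ATP5SL, each moved by more than 1.5 times, to between 1799 and 5559, when 1 fixed cell (cell 4, 6, 5, 1 or 7, by gene) was left out. The 1 count of ATP5SL was in fixed cell 6, and without that cell it was at 0 and at least 1021-fold lower. SERPINE2 alone overlapped between groups, with a lowest live cell at 0.232 CPM and a highest fixed cell at 0.268 CPM. The choice of genes largely fixes that the others did not overlap, and the share without overlap over all genes was not counted.

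Of the 588 genes within 2-fold in both sets, 311 had a count in all 18 cells. The 12 with the highest live level outside the ribosomal protein genes were BC018860, GAPDH, TMSL3, PPIA, H2AFZ, PFN1, HMGB1, UBB, EEF1G, ALDOA, YWHAE and PTMA. GAPDH, the glycolytic dehydrogenase, had 4235, 4694, 4620, 2718, 5573, 4417 and 3113 CPM in fixed cells 1 to 7. Live cells ran from 3618 to 6165 CPM with a median of 4659, so the groups overlapped, and 5 of the 7 fixed cells lay inside the live range. EEF1G, a subunit of the translation elongation factor 1 complex, was the closest of the 12 to its live level, with 1510 CPM in the fixed and 1506 CPM in the live group. PTMA, prothymosin alpha, had 1071 and 1232 CPM.

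A group level near that of live cells could hide cells that were far from it. ALDOA, the glycolytic aldolase, had 1984 CPM in fixed cell 2 and 16.7 CPM in fixed cell 1, while no live cell was under 1038 CPM. UBB, a ubiquitin precursor, ranged from 162 CPM in fixed cell 1 to 1954 CPM in fixed cell 2, and HMGB1, a chromatin protein, from 272 CPM in fixed cell 1 to 1924 CPM in fixed cell 2. YWHAE, a 14-3-3 protein, had 956 to 2622 CPM. With TMM factors all of these log2 folds are higher by the same step, which takes the median of all 7256 genes from -1.50 to -0.87, so membership in this class is for total counts as the scale.

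**Figure D4:**
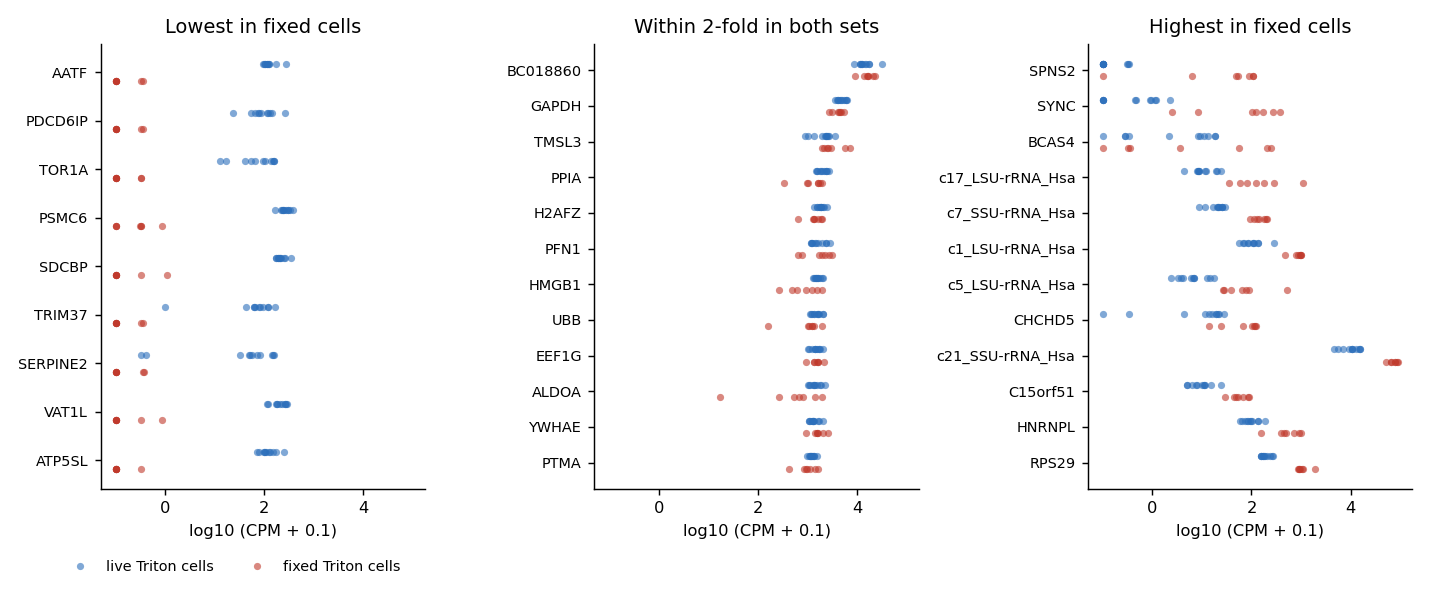
CPM of single cells on a log10 scale (CPM + 0.1), for 9 of the 10 genes lowest by the set with the smaller difference, the 12 most abundant genes within 2-fold in both sets outside the ribosomal protein genes, and the 12 highest by the set with the smaller difference; blue points are live and red points fixed Triton cells. Fixed cells sit at or near 0 on the left, mixed among live cells in the middle and mostly to the right of live cells on the right.

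The 309 genes higher in both sets had a median log2 fold of 1.90 and differed in how evenly the fixed cells shared them. They included 14 of the 15 tested rows named for ribosomal RNA, such as c21_SSU-rRNA_Hsa, with 51899 to 89320 CPM in fixed and 4674 to 15820 CPM in live cells. Counts in all 7 fixed cells were found for 180 of them, while for 99 a single cell held more than 50% of the summed CPM. In live cells 132 were under 20 CPM, and the median of the 309 in FRISCR cells was 0.32.

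The genes named here were highest by the set with the smaller difference, among those with at least 50 CPM in both fixed sets and a count in at least 6 fixed cells. HNRNPL, a splicing factor, had 996, 906, 156, 500.2, 388, 451 and 712 CPM in fixed cells 1 to 7. Its live cells ran from 58.3 to 187 CPM, so only fixed cell 3 fell inside their range. CHCHD5, a small mitochondrial protein with a transcript of 691 nt, had 116, 121, 13.9, 67.1, 24.1, 115 and 101 CPM in fixed cells and at most 27.7 CPM in live cells, so that cells 3 and 5 overlapped with live cells. C15orf51 had 29.2 to 87.9 CPM in fixed and at most 23.7 CPM in live cells, without overlap, at 60.2 against 10.6 CPM (5.70-fold).

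SYNC, SPNS2 and BCAS4 were less even. SYNC, an intermediate filament protein, had 273, 125, 2.36, 369, 102, 8.07 and 170 CPM in fixed cells and at most 2.21 CPM in live cells. SPNS2, a sphingosine-1-phosphate transporter, had 0 and 6.16 CPM in fixed cells 1 and 7, and 48.4 to 107 CPM in the other 5, with 1741 counts against 3 in live cells (ratio 1151-fold higher, 393 to 5588). BCAS4 had 204 and 243 CPM in fixed cells 2 and 7, 55.8 CPM in cell 5 and at most 3.54 CPM in the other 4, against at most 18.5 CPM in live cells. It went from 10.1-fold to 6.30-fold higher without fixed cell 7.

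Gene lists were set beside all genes measured. Over the 9122 genes that reached 10 CPM in 1 of the groups the median log2 fold was -1.62 and the median transcript 3156 nt. Counts of list members can be read against the shares of all tested genes above. The lists were not matched on level or length, and a member low in live cells enters only where the fixed group is high.

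**Figure D5:**
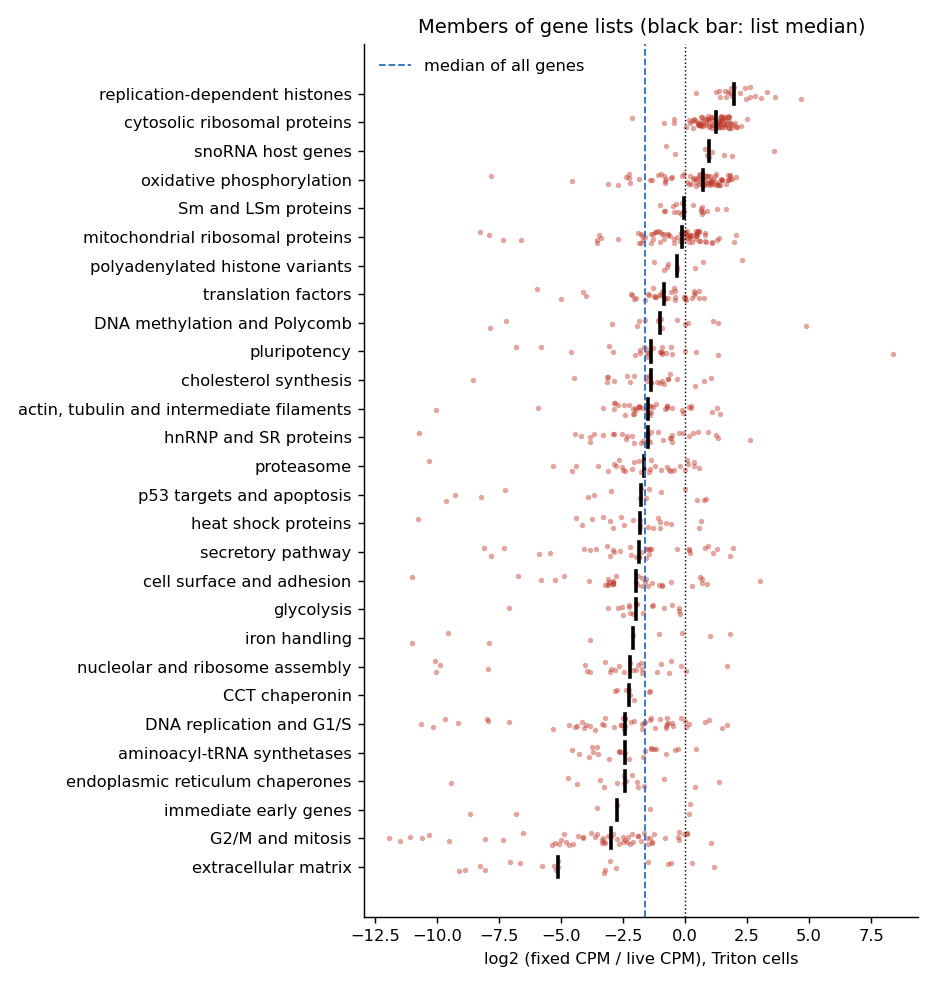
Each red point is a gene's log2 ratio of fixed to live CPM in Triton cells, by gene list; black bars are list medians, the dashed line is the median of all genes (-1.62) and the dotted line is 0. The medians of the histone, ribosomal protein, snoRNA host and oxidative phosphorylation lists lie to the right of 0, and those of the mitotic (-2.99) and matrix (-5.12) lists farthest left.

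Most ribosomal protein genes were kept or higher. Of 86 ribosomal protein rows, with a median of 1.26, 45 were higher, 25 within 2-fold and 1 lower in both sets, and 85 had a count in all 7 fixed cells. The lower one was RPL7L1, which resembles RPL7 but serves ribosome assembly and has a transcript of 4476 nt. It had 36.4 CPM in the fixed and 161 CPM in the live group, and was 7.46-fold in place of 4.42-fold lower without fixed cell 3. Other long rows of this list were not low as a group. The 42 rows up to 1000 nt had a median of 1.35, the 22 of 1000 to 2000 nt 0.96 and the 22 longer ones 1.04. RPS29, a small-subunit protein with a transcript of 677 nt, had 903, 942, 1106, 904, 863, 1909 and 1030 CPM in fixed cells, all above the highest live cell at 266 CPM. RPL3 stood at 1599 CPM in the fixed and 2165 CPM in the live group. Mitochondrial ribosomal proteins had a median of -0.13 over 77 members, with 22 within 2-fold, 15 lower and 1 higher. That median is 0.50 with TMM factors and -0.72 by mean TPM, so its sign depends on the scaling. Translation factors had a median of -0.87 over 38 members, from EIF5A, the hypusinated factor, at 0.78 to EIF3D, a subunit of initiation factor 3, at -5.95 (-7.19 without fixed cell 3).

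Many cytosolic ribosomal protein mRNAs begin with a C followed by pyrimidines, the tract through which growth signals control their translation. Start regions of 69 of the 86 rows were matched to RefSeq (GRCh38.p14), and 45 of these (65.2%) begin with C and at least 4 further pyrimidines (C or T) on the coding strand. The share was 5.43% among 5861 other tested genes and 4.07% among all 35116 start regions in that table. The windows below run from 10 bases before to 20 bases from the start site on the coding strand, with the tract in capitals, and show genes with and without it on both sides of 0, chosen after their values were seen.
RPS27 (chr1:153990752-153990781, + strand): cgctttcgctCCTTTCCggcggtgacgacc
RPLP0 (chr12:120201092-120201121, - strand): ggcgcgaggcCCTTCTCTCgccaggcgtcc
EEF1A1 (chr6:73521013-73521042, - strand): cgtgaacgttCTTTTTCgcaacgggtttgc
RPS29 (chr14:49598691-49598720, - strand): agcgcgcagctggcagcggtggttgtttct
RPL4 (chr15:66504836-66504865, - strand): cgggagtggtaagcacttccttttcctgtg
RPS27 stood at log2 2.25 and RPLP0 at 1.59, and EEF1A1, elongation factor 1 alpha, has a tract too but stood at -0.68. RPS29, which does not begin with a tract at this start site, stood at 2.50. RPL4 does not either, though its window holds pyrimidines farther in, and stood at -0.83. Ribosomal protein genes with the tract had a median of 1.39 and a transcript median of 874 nt, and those without it 0.80 and 1173 nt. Other genes had medians of -1.24 with and -1.64 without it. The overlap of tract and length was not separated.

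Replication-dependent histones, whose mRNAs end in a hairpin in place of a poly(A) tail, had the highest median of the lists, 1.97 over 21 measured rows of 72. A row is measured at 10 CPM in either group, so a row low in live cells enters only where the fixed group is high. HIST1H2AI entered in this way, at 20.1 CPM in the fixed and 0.778 CPM in the live group, and the median leans upward for it. Of 14 that reached 20 CPM in either group, 10 were higher in both sets and none was lower. This count leans upward in the same way, and HIST1H2AI is 1 of the 10. Of the 21 measured rows, 2 had a count in all 7 fixed cells. These rows are near-identical copies, so reads may be split among them. The hairpin was sought as a 6-base stem beginning GG around a 4-base loop beginning TT in the last 120 bases of GENCODE 29 transcripts. It was found for 12 of the 72 rows (16.7%) and for 7 of 20964 other matched rows (0.0334%). The models of 33 histone rows hold no sequence past the coding end, so a missing hairpin says nothing about them. Most hairpin rows under the minimum were lower in fixed cells, such as HIST1H4H at 0.240 against 2.59 CPM. HIST1H2BD went the other way, at 6.52 against 0.934 CPM with a count in 1 fixed cell, as did HIST1H2AE at 2.44 against 1.66 CPM. HIST3H3 was at 0 in both groups. The 2 measured rows with it are shown with the 16-base hairpin in capitals.
HIST1H4J: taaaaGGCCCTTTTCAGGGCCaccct
HIST1H2AI: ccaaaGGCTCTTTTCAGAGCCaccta
HIST1H4J, an H4 gene chosen for its hairpin, had 159 CPM in fixed cells and a log2 fold of 2.45. HIST1H2AI, an H2A gene, had 25.3, 53.1, 25.7, 2.25, 0, 18.1 and 10.0 CPM in fixed cells, with at most 2.44 CPM in live cells. HIST1H4C, the most abundant row, ranged from 137 CPM in fixed cell 4 to 2967 CPM in fixed cell 6, and from 43.3 to 1071 CPM in live cells, so the groups overlapped widely. Histone variants with a poly(A) tail had a median of -0.34 over 9 members, with H2AFZ at 1453 CPM in the fixed and 1834 CPM in the live group. With TMM factors it was 0.29.

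Mitochondrial energy genes split by the size of the subunit's transcript. Of 77 genes of oxidative phosphorylation, with a median of 0.74, 18 were higher, 15 within 2-fold and 9 lower. The 36 members up to 1000 nt had a median of 0.99, the 22 of 1000 to 2000 nt 0.65 and the 19 longer ones -0.84. UQCR10, a small subunit of complex III, had 207, 994, 211, 659, 428, 767 and 695 CPM in fixed cells, all above the highest live cell at 205 CPM. ATP5B, the ATP synthase beta subunit, ran the other way with 0.233 CPM in fixed cell 1 and 136 to 556 CPM in the rest, all under the lowest live cell at 1688 CPM. SDHC, a membrane anchor of complex II, had 16 counts in fixed cells against 7165 in live cells (226-fold lower), 13 of them in fixed cell 5, and was 1050-fold lower without that cell.

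Protein folding and turnover lists other than CCT held members on both sides of 0. All 8 CCT subunits, which form the ring chaperonin that folds actin and tubulin, were lower in both sets, with medians of -2.16 and -2.12 in the sets, where all genes had -2.25 and -2.72. CCT5 had 68.6, 228, 174, 118, 144, 0.436 and 226 CPM in fixed cells against 690 to 1335 CPM in live cells. Endoplasmic reticulum chaperones had a median of -2.42, with 12 of 16 lower (-1.96 and -3.72 in the sets), among them HSPA5 (BiP), at 141 against 1508 CPM (10.7-fold lower, 17.6-fold without fixed cell 6). CALR, calreticulin, was higher instead, with 670 to 1627 CPM in fixed and 293 to 808 CPM in live cells. Of 33 proteasome genes, with a median of -1.65, 17 were lower and 10 within 2-fold, with medians of 0.0092 for 7 members up to 1000 nt, -1.95 for 14 of 1000 to 2000 nt and -2.86 for 11 longer ones. Heat shock proteins had a median of -1.82 over 22 members, with 11 lower, near the share of all genes. HSPB1, the small heat shock protein, had 80.6 CPM in the fixed and 52.1 CPM in the live group, and HSPA1A had 1 count against 3462 (1745-fold lower, 313 to 68948). Without fixed cell 2, which held that count, it was at 0 and 487-fold lower at the floor of 3 counts.

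The mitotic and matrix lists had the lowest medians, below that of all genes in both sets. Of 59 G2/M genes 46 were lower and 3 within 2-fold, with a median of -2.99. TOP2A, the DNA topoisomerase of chromosome segregation, had 12.2 to 118 CPM in fixed and 114 to 1496 CPM in live cells, so only fixed cell 4 reached the live range. KIF23, a kinesin of cytokinesis, had 1 count in fixed and 7630 in live cells (3846-fold lower, 690 to 151930). Without fixed cell 6, which held that count, it was at 0 and 1080-fold lower at the floor of 3 counts. Genes of DNA replication and G1/S had a median of -2.40, with 30 of 52 lower, and -2.64 and -2.41 in the sets. MCM3, a helicase subunit, had 40.5 against 676 CPM (16.7-fold lower, 25.1-fold without fixed cell 7). Extracellular matrix genes had the lowest median, -5.12 over 20 members with a median transcript of 6176 nt. VCAN, the proteoglycan versican, had 0.684 to 35.7 CPM in fixed and 66.8 to 913 CPM in live cells, and the groups did not overlap.

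RNA processing genes spread on both sides. Sm and LSm proteins, which form the core of the spliceosome's small ribonucleoproteins, had a median of -0.06 over 20 members, with 9 within 2-fold, 1 higher and none lower. TMM factors make it 0.56 and mean TPM -0.63. SNRPD2, a core Sm protein with a transcript of 901 nt, had 519 to 2350 CPM in fixed and 353 to 640 CPM in live cells. Proteins of the hnRNP and SR families had a median of -1.51 over 37 members, with 19 lower and 2 higher, and HNRNPC had 230 CPM in the fixed and 1718 CPM in the live group. Nucleolar and ribosome assembly genes had a median of -2.23 over 27 members, with -3.04 and -2.11 in the sets. NOP10, a short component of H/ACA ribonucleoproteins (554 nt), had 578 CPM in the fixed and 181 CPM in the live group, whereas NCL, nucleolin, had 223 and 1212 CPM.

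Noncoding hosts of small nucleolar RNAs had a median of 0.97 over 9 members. Of these, 2 were higher and 1 within 2-fold in both sets, 5 did not share a class, and 3 had a count in all 7 fixed cells. GAS5 had 653, 499, 271, 298, 665, 822 and 50.0 CPM in fixed cells and 79.8 to 268 CPM in live cells, so 1 fixed cell lay under the live range. SNHG9 (471 nt) had 15.3 CPM in the fixed and 1.28 CPM in the live group (11.9-fold, 9.31 to 15.5). It passed the minimum of 10 CPM through the fixed group alone and did not reach 20 CPM. MALAT1, a long noncoding RNA of the nucleus, ranged from 358 to 2855 CPM in fixed and from 590 to 1916 CPM in live cells and stood at 1334 against 1192 CPM over the groups. Its transcript is 5340 nt long. The 4 nuclear noncoding RNAs measured had a median of -1.01.

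Genes of the same pathway could differ widely. Iron handling, with a median of -2.11 over 9 members, held FTL, the ferritin light chain (878 nt), with 5405, 10621, 3773, 3869, 6776, 10578 and 9410 CPM in fixed cells, all above the highest live cell at 3083 CPM. FTH1, the heavy chain, had 3592 CPM in the fixed and 1776 CPM in the live group. The transferrin receptor of the same pathway (5111 nt) was lost. In the secretory pathway (-1.84 over 35 members) OST4, a small subunit of the oligosaccharyltransferase (561 nt), had 260 to 643 CPM in fixed and at most 132 CPM in live cells. Its partner subunits RPN2 and DDOST had 231 against 638 CPM and 181 against 537 CPM, and DDOST was 7.65-fold in place of 2.97-fold lower without fixed cell 1. In the cytoskeleton (-1.51 over 40 members) TMSB10, a thymosin that binds actin monomers (496 nt), had 552 to 1102 CPM in fixed and 173 to 454 CPM in live cells, while ACTB had 3203 CPM in the fixed and 8366 CPM in the live group.

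Of 7 immediate early genes, which respond first to stimuli, the median was -2.73, with -6.08 and -0.88 in the sets. FOS, a transcription factor of this list, was at 0 in all fixed cells and ran from 0 to 191 CPM in live cells. At the floor of 3 counts it was 411-fold lower, with an interval from 334, and 226-fold lower without live cell 1. The remaining lists had medians of -1.36 for pluripotency genes (26 members), -2.41 for aminoacyl-tRNA synthetases (17 of 23 lower), -1.98 for glycolysis (14 of 19 lower), -1.38 for cholesterol synthesis (25), -1.96 for cell surface genes (36), -1.80 for p53 targets (16, and above that of all genes by 0.12 and 0.16 without fixed cell 3 or 7) and -1.01 for DNA methylation and Polycomb genes (16). Among the stem cell markers, LIN28A, an RNA-binding protein, had 256 CPM in the fixed and 892 CPM in the live group, TDGF1, the co-receptor cripto, 377 and 1025 CPM, and L1TD1 387 and 747 CPM. SALL4, a transcription factor, had the lowest fixed level of the 10 markers, 5.18 against 124 CPM. SOX2 was not lower over the group, at 37.0 against 27.0 CPM, but its sets had log2 folds of 1.29 and -1.20.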

How the data were processed

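Single-cell Smart-seq2 libraries with Nextera XT ends were compared between 7 fixed and 11 live Triton cells, with 12 fixed and 15 live FRISCR cells beside them. The authors deposited a table of expected counts and a table of TPM for 23045 gene rows, with GRCh37 (hg19) as the build per the submitters' processing notes. Which aligner and annotation served is not given in the sources used here. Expected counts (40.3% of values not whole) were rounded, summed per group and scaled to totals. Total counts were 3388417 to 6594043 per cell, and intervals and floors (3 counts over a group) cover counting error only. A gene was called when over 2-fold in both library sets among genes with 20 CPM or more in the fixed or live sum; lists used 10 CPM. Cells were thinned to 1000000 counts (seed 7) for gene detection. Alternatives were TMM factors (edgeR 4.0.16), median-of-ratios factors (DESeq2 1.42.0, used for factors only), mean TPM, other minimums, each set alone and each cell left out. Python 3.11.15, numpy 2.4.6, pandas 2.3.3 and scipy 1.17.1 were used. Symbols were matched to GENCODE 29 transcripts (19074 by current and 1962 by older symbols, 2009 unmatched), and start regions to RefSeq GRCh38.p14. Each symbol was given 1 transcript model, protein-coding first, then by the annotation's principal-transcript rank, coding length and total length. A gene's length is that of this model, which may not be the one expressed. Named genes were the 10 lost genes highest in live cells, the 10 lowest with a count left and the 12 highest (both ranked by the set with the smaller difference), the 12 most abundant within 2-fold outside the ribosomal protein genes, and of each list the 2 most abundant and the highest and lowest by fold. Of these, 2 genes are not reported here. Members and lists were chosen with earlier results of these data known. The length contrast and the thinning without abundant rows were added after seeing the data. Tested on simulated counts for this comparison, the class rule recovered 100% of 50 genes at a known fold of 0.1, 86% at 4, and called 0.213% of 6572 unchanged genes. These rates hold only for the cell-to-cell spread put into the simulation. They do not give the rate of false calls among the real fixed cells. There the highest cell carried a median of 82.5% (set 1) and 88.7% (set 2) of a gene's summed CPM.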

Additional observations from a re-analysis of the deposited data

Results flagged for a closer look

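Among 30 values given for each of the 7 fixed cells, 4 had a cell whose gap to the nearest other cell was a larger share of the whole range than Dixon's 95% critical value, which chance passes in about 1 in 20 groups. The row c17_LSU-rRNA_Hsa stood at 1110.5 CPM in fixed cell 3, with the next cell at 284 CPM. The row c5_LSU-rRNA_Hsa stood at 519.7 CPM in the same cell, with the next at 89.7 CPM, and without it the 2 rows were 10.9-fold and 7.38-fold higher in fixed cells in place of 20.4-fold and 14.6-fold. The row c1_LSU-rRNA_Hsa was lowest in fixed cell 5, at 463.9 CPM, with the next at 798 CPM. RPS29 was highest in fixed cell 6, at 1908.7 CPM, with the next at 1105.5 CPM.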

How the results depend on the processing

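The genes lower in both sets numbered 2734 to 4378 under the other scalings and a minimum of 10 CPM, and 1882 at 50 CPM. The genes higher numbered 615 with TMM factors, 561 with median-of-ratios factors and 131 by mean TPM. The lost genes numbered 37 at a minimum of 50 CPM in live cells, 331 when up to 10 summed counts passed as absent and 158 after thinning. Leaving out 1 cell in turn gave 3354 to 3554 genes lower, 288 to 356 higher, 489 to 597 within 2-fold, 116 to 183 lost, a length contrast of 2.71 to 2.93 and a difference in genes per cell of -4703.5 to -4421.5. The length contrast was 3.93 in library set 2 alone. Relative to all genes, list medians turned sign at a member minimum of 50 CPM for pluripotency (-0.012), hnRNP and SR proteins (-0.16), cytoskeleton (-0.11), cholesterol synthesis (-0.030) and iron handling (0.30). In library sets taken alone, 11 lists were not on their pooled side of all genes in at least 1 set: proteasome, CCT, heat shock, endoplasmic reticulum chaperones, tRNA synthetases, glycolysis, replication, cell surface, secretory, nucleolar and immediate early genes. Without 1 fixed cell in turn, the list median minus that of all genes ranged from -0.11 to 0.54 for cholesterol synthesis. For p53 targets this difference ranged from -1.57 to 0.16. Without 1 cell in turn the log2 fold of AGRN ranged from -0.58 to 1.56. The cause of these changes was not tested. Depth limits what can be called lost, since 3 counts over the fixed group is the floor. No paired analysis was possible because replicates were numbered in accession order and no result comes from a test.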

Other observations

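Some genes of the lists owed their group level to 1 fixed cell. LEFTY1, a Nodal antagonist, had 118 CPM in fixed cell 1, 0.295 CPM in fixed cell 3 and 0 in all other fixed and all live cells. FABP7, a fatty acid binding protein of neural progenitors, had 170 CPM in fixed cell 2. CDKN1A, the p21 inhibitor of the cell cycle, had 153 CPM in fixed cell 1, 0.218 CPM in fixed cell 6 and 0 in the other 5, while live cells ran from 0 to 125 CPM. AGRN, the matrix protein agrin, had 62.3 and 140.5 CPM in fixed cells 3 and 7. CD81, a tetraspanin, was 8.17-fold higher, and 4.50-fold without fixed cell 6.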
